A study of Mus musculus with 2 samples.

Results

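Gzma, Gzmb and Gzmc encode granzymes A, B and C, serine proteases stored in the granules of cytotoxic lymphocytes, and Prf1 encodes perforin, the protein that opens the membrane of a target cell to them. These 4 of the 31053 genes in each count matrix were taken by symbol. The members were chosen by their levels in these same libraries, where Gzma had been seen to be higher and Gzmb and Gzmc lower in TMREhi. Differences between the libraries are therefore described and not tested.

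The TMREhi library held immature γδ T cells, positive for CD24, that were bright for TMRE, a dye taken up by mitochondria according to their membrane potential. The TMRElo library held the dim cells of the same sort. Both came from wild-type C57BL/6 embryos at day 15 of gestation, whose thymic lobes were kept for 2 days in culture without treatment. Each fraction gave 1 library of the 10x Chromium 5′ assay, in which a UMI marks 1 captured RNA molecule and a barcode marks 1 droplet, usually 1 cell. The labels do not say how many embryos were pooled. Intervals below are 95% and cover counting error only, not variation between embryos, sorts or cells.

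In cytotoxic T cells and natural killer (NK) cells, perforin and granzymes are packed together and released toward a target. Granzyme B cleaves caspases and their substrates, and granzyme A cuts after basic residues and kills without caspases. γδ T cells form in successive fetal waves that differ in the V segments of their receptor, and some waves acquire effector genes while still in the thymus.

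TMREhi had 1202 barcodes and TMRElo 196, and 0 barcode sequences occurred in both. Barcodes with at least 500 genes numbered 1025 in TMREhi (4235563 UMIs, median 2031) and 133 in TMRElo (219352 UMIs, median 1113). Retained barcodes, which also had at most 10% mitochondrial UMIs, numbered 317 in TMREhi (2905666 UMIs, median 7465) and 34 in TMRElo (105080 UMIs, median 1679). Levels are given as CPM, the gene's UMIs scaled to a common library total, on which 1 UMI among retained barcodes stood for 0.344 CPM in TMREhi and 9.52 CPM in TMRElo. In TMREhi the deepest retained barcode made up 0.955% of this total, and in TMRElo 11.2%. Barcodes of at least 500 genes were also split at a 15% share of UMIs from ribosomal protein genes. The low-ribosomal class had 733 TMREhi and 117 TMRElo barcodes, and the high-ribosomal class 292 TMREhi and 16 TMRElo barcodes.

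The 4 genes lie at 3 loci. On GRCm38 (GENCODE vM21), Gzma spans chr13:113093825-113100981 on the minus strand (ENSMUSG00000023132) and Prf1 spans chr10:61297833-61304680 on the plus strand (ENSMUSG00000037202). Gzmc (chr14:56231441-56234656, ENSMUSG00000079186) and Gzmb (chr14:56258838-56262260, ENSMUSG00000015437) both lie on the minus strand, 24181 bases apart, in a cluster of 7 granzyme genes. Gzma, Gzmb and Prf1 transcripts shared 0% of their 50-base words with other family members, and Gzmc shared 4.14%, mostly with Gzme.

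The promoters of the 3 granzyme genes are shown because Gzmb and Gzmc, from 1 gene cluster, shared more of their barcodes than either shared with Gzma. The sequences are the 250 bases before the RefSeq start on GRCm38.p6, at chr13:113100982-113101231, chr14:56262335-56262584 and chr14:56234658-56234907, all read on the minus strand. Capitals mark ACCACA or its complement TGTGGT, the core letters bound by RUNX factors.
Gzma: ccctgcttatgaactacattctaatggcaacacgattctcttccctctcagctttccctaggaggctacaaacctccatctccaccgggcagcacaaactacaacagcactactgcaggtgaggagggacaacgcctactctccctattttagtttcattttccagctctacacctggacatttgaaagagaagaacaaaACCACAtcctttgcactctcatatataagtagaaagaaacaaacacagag
Gzmb: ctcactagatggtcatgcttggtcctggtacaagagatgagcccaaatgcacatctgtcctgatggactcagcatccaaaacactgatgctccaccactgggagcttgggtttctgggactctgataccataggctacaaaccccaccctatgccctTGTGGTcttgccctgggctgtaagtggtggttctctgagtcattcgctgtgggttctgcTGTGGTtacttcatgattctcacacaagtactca
Gzmc: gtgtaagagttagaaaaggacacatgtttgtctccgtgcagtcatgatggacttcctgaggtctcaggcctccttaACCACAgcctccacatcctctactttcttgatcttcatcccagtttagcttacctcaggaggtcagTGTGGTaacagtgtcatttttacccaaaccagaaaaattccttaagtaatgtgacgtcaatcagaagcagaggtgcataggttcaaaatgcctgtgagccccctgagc
The Gzma promoter held 1 match, 50 bases before the start. The Gzmb promoter held 2, the nearer at 34 bases, and the Gzmc promoter held 2, the nearer at 108 bases. Such letters occur in 4614 of 32851 promoter windows of this length, and the Prf1 window also held 1 match. The AP-1 letters TGANTCA, found in 6.75% of windows, occurred in Gzmb alone of the 4 genes. The letters ACGTCA or TGACGT, in 6.47% of windows, occurred in Gzmc and Prf1, and the T-box letters GGTGTGA or TCACACC, in 3.33%, in 0 of the 4. Motifs were searched on both strands and were chosen after the sequences had been seen, and a match is a run of letters and not a shown binding site.

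Gzma was abundant and widespread in TMREhi. Among retained barcodes it had 5211 UMIs in 146 of 317 TMREhi barcodes (46.1%, 40.5–51.7) and 9 UMIs in 4 of 34 TMRElo barcodes (11.8%, 3.30–27.5). The summed level was 1793 CPM (1745–1843) in TMREhi and 85.6 CPM (39.2–163) in TMRElo, a ratio of 20.9 (11.0–45.8). Holders in TMREhi ranged up to 261 UMIs with a median of 19.5, while the highest TMRElo barcode had 4. Of 7802 genes averaging 10 CPM or more across the libraries, 10% were at least 2-fold higher and 29.9% at least 2-fold lower in TMREhi after adding 1 CPM. Gzma was among the higher ones (log2 4.37), Gzmb and Gzmc among the lower ones (log2 −4.51 and −5.69), and Prf1 was under the level minimum. These percentages describe the contrast on which the genes were chosen. Over all deposited barcodes 11% of 8512 genes were at least 2-fold higher and 20.7% at least 2-fold lower, with Gzma at log2 4.31, Gzmb at −2.82 and Gzmc at −3.14.

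Gzma was spread over many barcodes. Over barcodes of at least 500 genes, TMREhi had 6730 Gzma UMIs in 387 of 1025 barcodes (37.8%, 34.8–40.8), and the 35 richest barcodes held 50% of them. TMRElo had 17 UMIs in 11 of 133 barcodes (8.27%), at 4, 2, 2 and 2 UMIs and 7 single UMIs. The richest TMREhi barcode held 3.88% of the Gzma UMIs, against a median of 1.16% over 103 genes within a factor of 2 of its UMI total. Gzma was therefore found in many barcodes but unevenly among them, from 98 barcodes with 1 UMI up to one with 261.

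Free RNA can put UMIs into droplets whose cell does not express the gene, so a comparison set was measured. Barcodes with a Rag1 UMI and no γ V segment UMI, held Gzma in 28 of 165 cases (17.0%, 11.6–23.6; median depth 1188 UMIs). Of the 79 Gzma UMIs in this set 22 lay in 1 barcode, and the share of the set that is free RNA was not measured. Barcodes with a γ V segment and no Rag1 UMI held it in 44.6% (40.7–48.6) of 641 (median depth 2478). After thinning to 1000 UMIs per barcode the share was 14.3% (7.83–23.2) in the first set, and 30.4% (27.3–33.6) of all 866 TMREhi and 4.76% (1.31–11.7) of 84 TMRElo barcodes of that depth. The TMRElo share was lower than that of this TMREhi set, but their intervals overlapped. TMRElo had 0 barcodes with a Rag1 UMI and no γ segment to give its own. Gzmb was in 1 of the 165 barcodes (0.606%, 0.0153–3.33) and Gzmc in 0 (interval up to 2.21%).

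**Figure D1:**
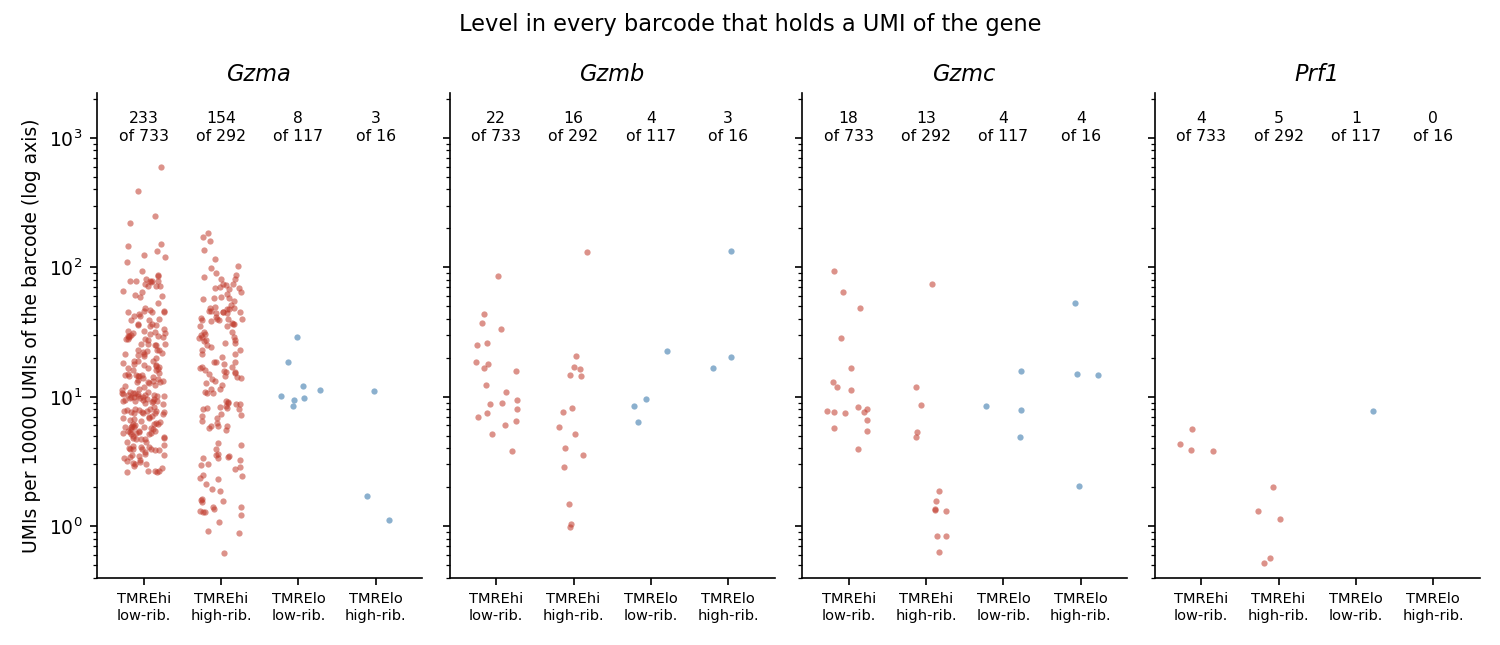
UMIs per 10000 UMIs of the barcode (log axis) for each barcode that held a UMI of the gene, by library and ribosomal class, among barcodes of at least 500 genes. Each point is 1 barcode, the numbers above give barcodes with a UMI of all barcodes, and Gzma fills both TMREhi classes while Gzmb and Gzmc have 3 and 4 points in the TMRElo high-ribosomal class.

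Gzmb was lower in TMREhi when UMIs were summed, but few barcodes set that difference. Retained barcodes had 93 UMIs in 13 of 317 TMREhi barcodes (4.10%, 2.20–6.91) and 79 UMIs in 3 of 34 TMRElo barcodes (8.82%, 1.86–23.7). The level was 32.0 CPM (25.8–39.2) in TMREhi and 752 CPM (595–937) in TMRElo, 23.5-fold lower in TMREhi (17.2–32.0). One TMRElo barcode held 64 of the 79 UMIs, or 81.0%, against a median of 16.8% over 236 genes of similar UMI total. Without the richest barcode of each library the ratio was 0.155 (0.0876–0.292), where it had been 0.0426 with them. Counting intervals treat UMIs as independent and do not cover such concentration in 1 cell.

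Shares of barcodes with Gzmb depended on depth. Over barcodes of at least 500 genes it was held by 38 of 1025 in TMREhi (3.71%, 2.64–5.05) and by 7 of 133 in TMRElo (5.26%, 2.14–10.5). Thinned to 1000 UMIs, Gzmb was in 26 of 866 TMREhi barcodes (interval 1.97–4.37%) and 5 of 84 TMRElo barcodes (5.95%, 1.96–13.3), and retained barcodes gave 1.42% (0.388–3.59) of 282 in TMREhi and 11.1% (2.35–29.2) of 27 in TMRElo. All these intervals overlapped between the libraries, which does not show equal shares. In retained barcodes thinned to 1000 UMIs the difference, TMREhi less TMRElo, was −9.69 percentage points (−26.7 to −2.12). Thinned to 2000 UMIs, which left 518 TMREhi and 19 TMRElo barcodes of at least 500 genes, the intervals did not overlap, at 2.90% (1.63–4.73) in TMREhi and 26.3% (9.15–51.2) in TMRElo. In retained barcodes at that depth they overlapped, at 3.01% (1.31–5.84) of 266 in TMREhi and 20% (4.33–48.1) of 15 in TMRElo. The 7 TMRElo barcodes had 64, 8, 7, 2, 2, 2 and 1 UMIs. The 38 TMREhi barcodes had 44, 26, 15, 13, 11, 11, 9 and 8 UMIs at the top, and 13 had 1. The richest barcode of each library stood at 132 UMIs per 10000 in TMREhi and 134 per 10000 in TMRElo. The TMREhi one (3341 UMIs) had 15.3% mitochondrial UMIs and was not retained, whereas the TMRElo one (4770 UMIs) had 6.25% and was.

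Gzmc followed Gzmb. Retained barcodes had 17 UMIs in 10 TMREhi barcodes (5.85 CPM, 3.41–9.37) and 37 UMIs in 4 TMRElo barcodes (352 CPM, 248–485), 60.2-fold lower in TMREhi (33.1–114). One TMRElo barcode held 22 of the 37 UMIs (59.5%), against a median of 17.5% over 663 genes of similar total. Over barcodes of at least 500 genes, Gzmc was held by 31 in TMREhi (3.02%, 2.06–4.27) and 8 in TMRElo (6.02%, 2.63–11.5), and these intervals overlapped. Thinned to 1000 UMIs they still overlapped in this set, at 2.19% (1.33–3.41) in TMREhi and 7.14% (2.67–14.9) in TMRElo, but not in retained barcodes, at 0.355% (0.00898–1.96) in TMREhi and 11.1% (2.35–29.2) in TMRElo. Nor did they overlap at 2000 UMIs in barcodes of at least 500 genes, where 5 of 518 TMREhi barcodes (0.965%, 0.314–2.24) and 6 of 19 TMRElo barcodes (31.6%, 12.6–56.6) held Gzmc. The TMRElo barcodes had 22, 7, 6, 5, 2, 1, 1 and 1 UMIs, and the richest TMREhi barcodes 18, 11, 7 and 5.

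Prf1 was hardly detected. Retained barcodes had 6 UMIs in 5 TMREhi barcodes (2.06 CPM) and 0 UMIs in TMRElo, where counting error allows up to 35.1 CPM, so no ratio is given. Over barcodes of at least 500 genes there were 10 UMIs in 9 TMREhi barcodes and 1 UMI in 1 TMRElo barcode. Of the 9 TMREhi barcodes 6 also held Gzma and 1 held Gzmb, which were in 37.8% and 3.71% of all 1025 TMREhi barcodes. The 9 were deep, at a median of 7647 UMIs against 2013 in the other TMREhi barcodes.

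**Figure D2:**
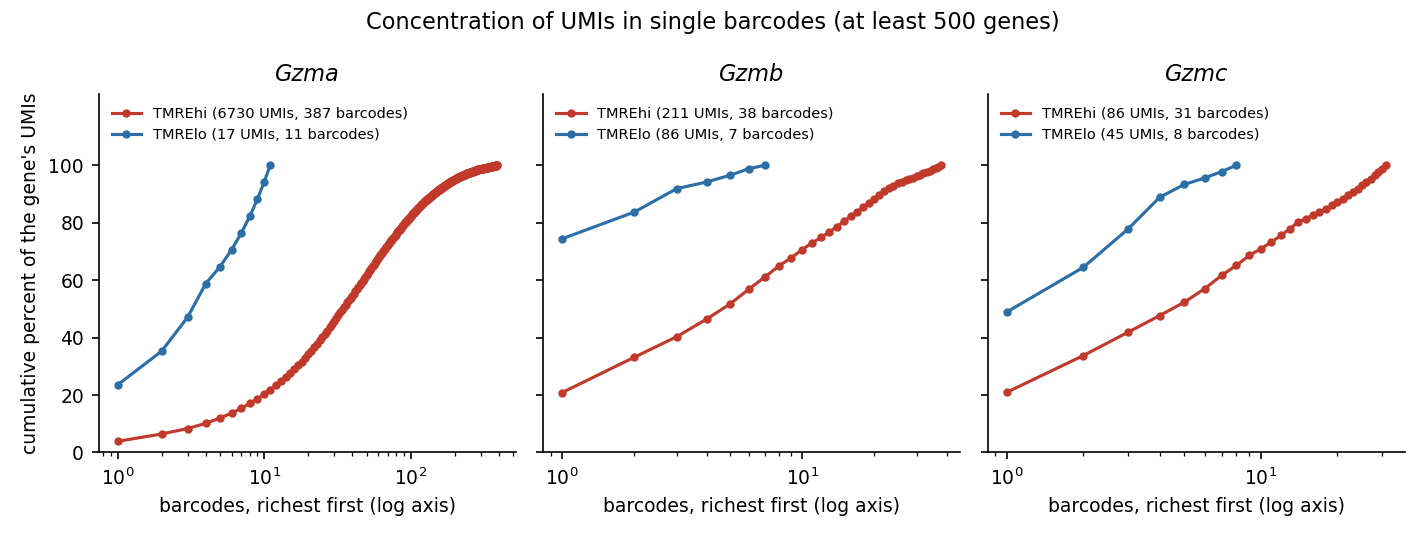
Cumulative percent of the UMIs of Gzma, Gzmb and Gzmc against the number of barcodes, ordered from the richest (log axis), among barcodes of at least 500 genes. The first point of the TMRElo Gzmb curve stands at 74.4% and that of the TMREhi curve at 20.9%, while the TMREhi Gzma curve starts at 3.88%.

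The opposite directions exceeded counting error in the high-ribosomal class, while in the low-ribosomal class those of Gzmb and Gzmc did not. Among high-ribosomal barcodes Gzma stood at 1826 CPM in TMREhi and 83.0 CPM in TMRElo (interval of the ratio 10.7–54.8), and Gzmb at 49.9 CPM in TMREhi and 936 CPM in TMRElo (ratio 0.0533, 0.0403–0.0711). Gzmc there had 42 UMIs in TMREhi and 37 in TMRElo (ratio 0.0328, 0.0206–0.0524). In this class 11.9% of 7410 genes were at least 2-fold higher and 20% at least 2-fold lower. This class is no separate check on the retained barcodes, since it holds 93 of the 93 retained Gzmb UMIs in TMREhi and 79 of the 79 in TMRElo.

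Among low-ribosomal barcodes Gzma was again higher in TMREhi, and the intervals of Gzmb and Gzmc spanned equality. Gzma had 1393 UMIs in 233 of 733 TMREhi barcodes and 10 UMIs in 8 of 117 TMRElo barcodes, at 1061 CPM and 74.1 CPM (ratio 14.3, 7.77–29.9). Gzmb stood at 49.5 CPM in TMREhi and 51.9 CPM in TMRElo (65 and 7 UMIs; ratio 0.955, 0.438–2.47). Gzmc stood at 33.5 CPM in TMREhi and 59.3 CPM in TMRElo (44 and 8 UMIs; ratio 0.566, 0.263–1.39). This does not show that the levels were equal. In this class 15.8% of 8831 genes were at least 2-fold higher and 13.4% at least 2-fold lower, and of the members 1, Gzma, passed either limit. Limited to low-ribosomal barcodes with a γ V segment UMI, a set added after the data were seen, the Gzmb ratio was 1.53 (0.618–4.88) and that of Gzma 23.4 (11.3–58.3).

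**Figure D3:**
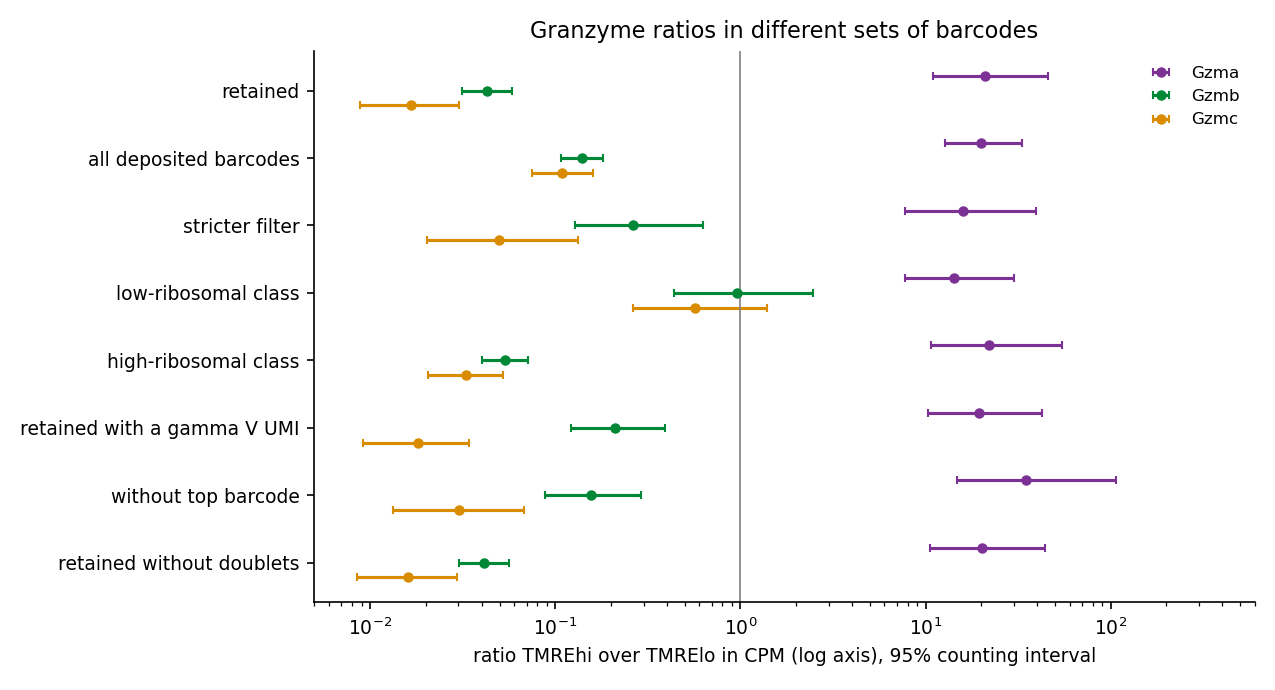
Ratio of CPM, TMREhi over TMRElo (log axis, grey line at 1), for Gzma, Gzmb and Gzmc in 8 sets of barcodes, with 95% counting intervals. Gzma lies between 14.3 and 34.7 in every set, while Gzmb ranges from 0.0412 to 0.955 and Gzmc from 0.0161 to 0.566, both nearest to 1 in the low-ribosomal class.

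Few barcodes held both Gzma and Gzmb or Gzmc, and Gzmb and Gzmc were themselves rare. Of the 1025 TMREhi barcodes, 369 (36.0%) held Gzma alone of the 4 genes, and 596 (58.1%) held none of them. Gzma and Gzmb were together in 10 TMREhi barcodes, which were 2.58% of the 387 with Gzma and 26.3% of the 38 with Gzmb, against 37.8% with Gzma among all barcodes. In TMRElo 1 barcode held both, 9.09% of the 11 with Gzma and 14.3% of the 7 with Gzmb. At a minimum of 5 UMIs of each gene the order was turned round, with Gzma in 4 of 11 TMREhi barcodes with Gzmb (36.4%) and in 18.4% of those without it. Joint barcodes could be rich in both. The TMREhi barcode with 44 Gzmb UMIs also had 39 Gzma UMIs, and others had 68 Gzma with 15 Gzmb and 106 Gzma with 3 Gzmb. Scrublet called none of these 3 a doublet.

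Gzmb and Gzmc shared barcodes in both libraries. They shared 17 TMREhi barcodes, 44.7% of those with Gzmb and 54.8% of those with Gzmc, although Gzmc was in 3.02% of all TMREhi barcodes. They shared 5 TMRElo barcodes, 71.4% of the 7 with Gzmb and 62.5% of the 8 with Gzmc. At 5 UMIs or more of each, a level that 4 TMREhi barcodes reached for Gzmc, 0 TMREhi barcodes and 3 TMRElo barcodes held both. The balance of Gzmb and Gzmc differed between barcodes. The TMRElo barcode with 64 Gzmb UMIs had 7 Gzmc UMIs and another had 7 Gzmb and 22 Gzmc UMIs, while a TMREhi barcode had 4 Gzmb and 18 Gzmc UMIs. Barcodes with at least 3 UMIs of either gene numbered 26 in TMREhi and 4 in TMRElo, and every one of these 30 held a UMI of Cd3e, Trdc or a receptor V segment, transcripts of T cells. This does not set them apart from other barcodes. A UMI of any of 7 γδ T cell marker genes, Cd3e and Trdc among them, was common without Gzma, Gzmb or Gzmc. It was found in 544 of 598 such TMREhi and 110 of 113 such TMRElo barcodes.

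**Figure D4:**
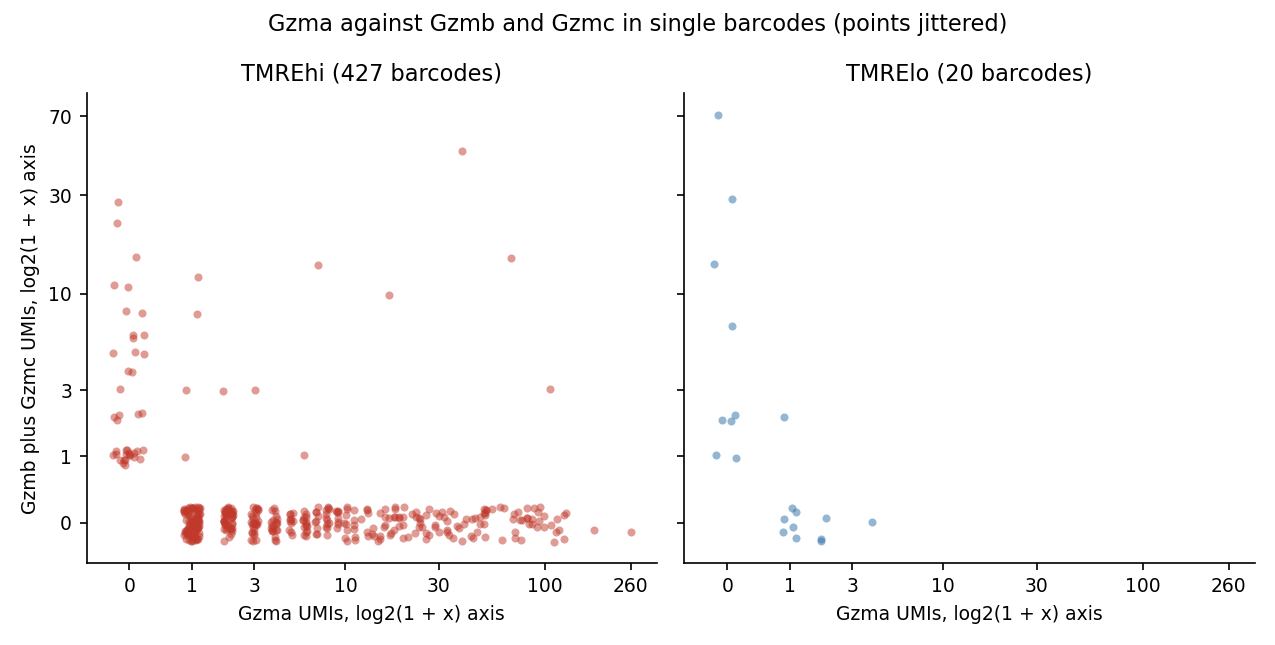
Gzma UMIs against the sum of Gzmb and Gzmc UMIs in each barcode of at least 500 genes with a UMI of any of the 3 (axes log2 of 1 plus the count, points jittered), TMREhi left and TMRElo right. Most TMREhi points lie along one axis or the other, and 12 of 427 lie off both.

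Gzma in TMREhi went with particular δ segments. Barcodes whose most abundant δ segment was Trdv2-2 held Gzma in 124 of 163 cases (76.1%, 68.8–82.4) at 2600 CPM, and those led by Trdv5 in 43 of 70 (61.4%, 49.0–72.8) at 2399 CPM. Barcodes led by Trdv4, the segment of the Vδ1 chain of the early fetal waves, held it in 16 of 186 (8.60%, 5.0–13.6). This share was lower than the 17.0% (11.6–23.6) of the barcodes with Rag1 and no γ segment, but the intervals overlapped. Thinned to 1000 UMIs the shares were 59.1% (51.1–66.8) for Trdv2-2, 48.5% (36.0–61.1) for Trdv5 and 6.71% (3.40–11.7) for Trdv4. The Trdv2-2 and Trdv4 shares were also apart within each ribosomal class, at 64.0% and 8.47% of low-ribosomal and 90.5% and 8.82% of high-ribosomal barcodes.

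By γ segment, the Gzma share was 61.6% (49.5–72.8) of 73 TMREhi barcodes led by Tcrg-V4 and 56.2% (51.2–61.1) of 404 led by the V1 family. That family pools Tcrg-V1, Trgv2 and Tcrg-V3, whose sequences are nearly identical. Barcodes led by Tcrg-V6 held Gzma in 10.8% (5.28–18.9) of 93 cases and those led by Tcrg-V5 in 18.4% (7.74–34.3) of 38. Thinned to 1000 UMIs these were 4.76% (1.31–11.7) and 17.6% (6.76–34.5), beside 14.3% in the set with Rag1 and no γ segment. The few Tcrg-V5 holders were rich, at 210 UMIs in 7 barcodes and 2035 CPM, with 47.1% of the UMIs in 1 barcode. The mean level of Tcrg-V4 barcodes, 4852 CPM, owed 23.9% of its UMIs to 1 barcode with 261.

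Within the 4 segments with the most TMRElo barcodes, Gzma was higher in TMREhi. The ratio was 37.6 (17.3–103) in V1 family barcodes, at 1771 CPM in TMREhi and 47.1 CPM in TMRElo, and 25.6 (9.96–94.0) in Tcrg-V4 barcodes, at 4852 CPM in TMREhi and 190 CPM in TMRElo. It was 12.9 (6.54–29.9) in Trdv2-2 barcodes, of which TMREhi had 163 and TMRElo 22, and 27.8 (9.49–135) in Trdv5 barcodes, of which they had 70 and 13. The TMRElo values rested on 3 to 8 UMIs each. The ratio was 5.85 (1.61–48.5) in Trav15d-1-dv6d-1 barcodes and 3.17 (0.546–127) in Trav15-1-dv6-1 barcodes, on 2 UMIs and 1 UMI in TMRElo. These intervals overlapped those of the 4 segments above, so a smaller ratio is not shown. Barcodes led by Tcrg-V7 (8 in TMREhi, 4 in TMRElo) or Trav15-2-dv6-2 (27 and 7) had 0 Gzma UMIs in TMRElo. Their ratios had lower limits of 4.82 and 3.42. Barcodes led by Trdv1 or Trdv4 numbered 2 and 3 in TMRElo and held 0 Gzma UMIs.

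By δ segment Gzmb and Gzmc had another distribution than Gzma. In TMREhi 60.2% of the 211 Gzmb UMIs lay in Trdv4 barcodes, which held 13.1% of the library's UMIs, with Gzmb in 14 of 186 (7.53%, 4.18–12.3) and Gzmc in 14. Of the 127 Gzmb UMIs in Trdv4 barcodes, 44 lay in 1 barcode, also led by Tcrg-V5, and 26 in another. Of the 163 Trdv2-2 barcodes 0 held Gzmb and 0 held Gzmc (intervals up to 2.24%). By γ segment the V1 family held the most, with 45.0% of the Gzmb UMIs in 18 barcodes and 40.7% of the Gzmc UMIs in 11, beside 64.6% of the library's UMIs. Tcrg-V5, whose Vγ5 chain pairs with Vδ1 in epidermal γδ T cells, led 38 barcodes that held 37.4% of the Gzmb UMIs and 2.44% of the library's. Gzmb was in 7 of these 38 (18.4%, 7.74–34.3) and Gzmc in 9 (23.7%, 11.4–40.2), with 55.7% of their Gzmb UMIs in 1 barcode. The 27 barcodes led by both Tcrg-V5 and Trdv4 had 76 Gzmb UMIs in 6 barcodes.

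In TMRElo 10 barcodes held Gzmb or Gzmc, of which 5 were led by the V1 family, 1 each by Tcrg-V4, Tcrg-V5 and Tcrg-V7, and 2 by no γ segment. The barcode with 64 Gzmb UMIs had 0 γ V UMIs and 3 UMIs of Trav15-1-dv6-1, the next was led by the V1 family and the third by Tcrg-V7. Only 3 TMRElo barcodes were led by Trdv4 and 1 by Tcrg-V5, so these segments could not be compared between libraries. In V1 family barcodes Gzmb stood at 34.7 CPM in TMREhi and 86.3 CPM in TMRElo (ratio 0.402, 0.215–0.833), on 18 of 404 and 3 of 66 barcodes. One barcode held 26 of the 95 UMIs in TMREhi and another 8 of the 11 in TMRElo, and without them the ratio was 1.04 (0.342–5.18). Gzmc there stood at 12.8 CPM in TMREhi and 118 CPM in TMRElo (ratio 0.109, 0.0578–0.214), and without the richest barcodes the ratio was 0.0853 (0.0360–0.217).

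**Figure D5:**
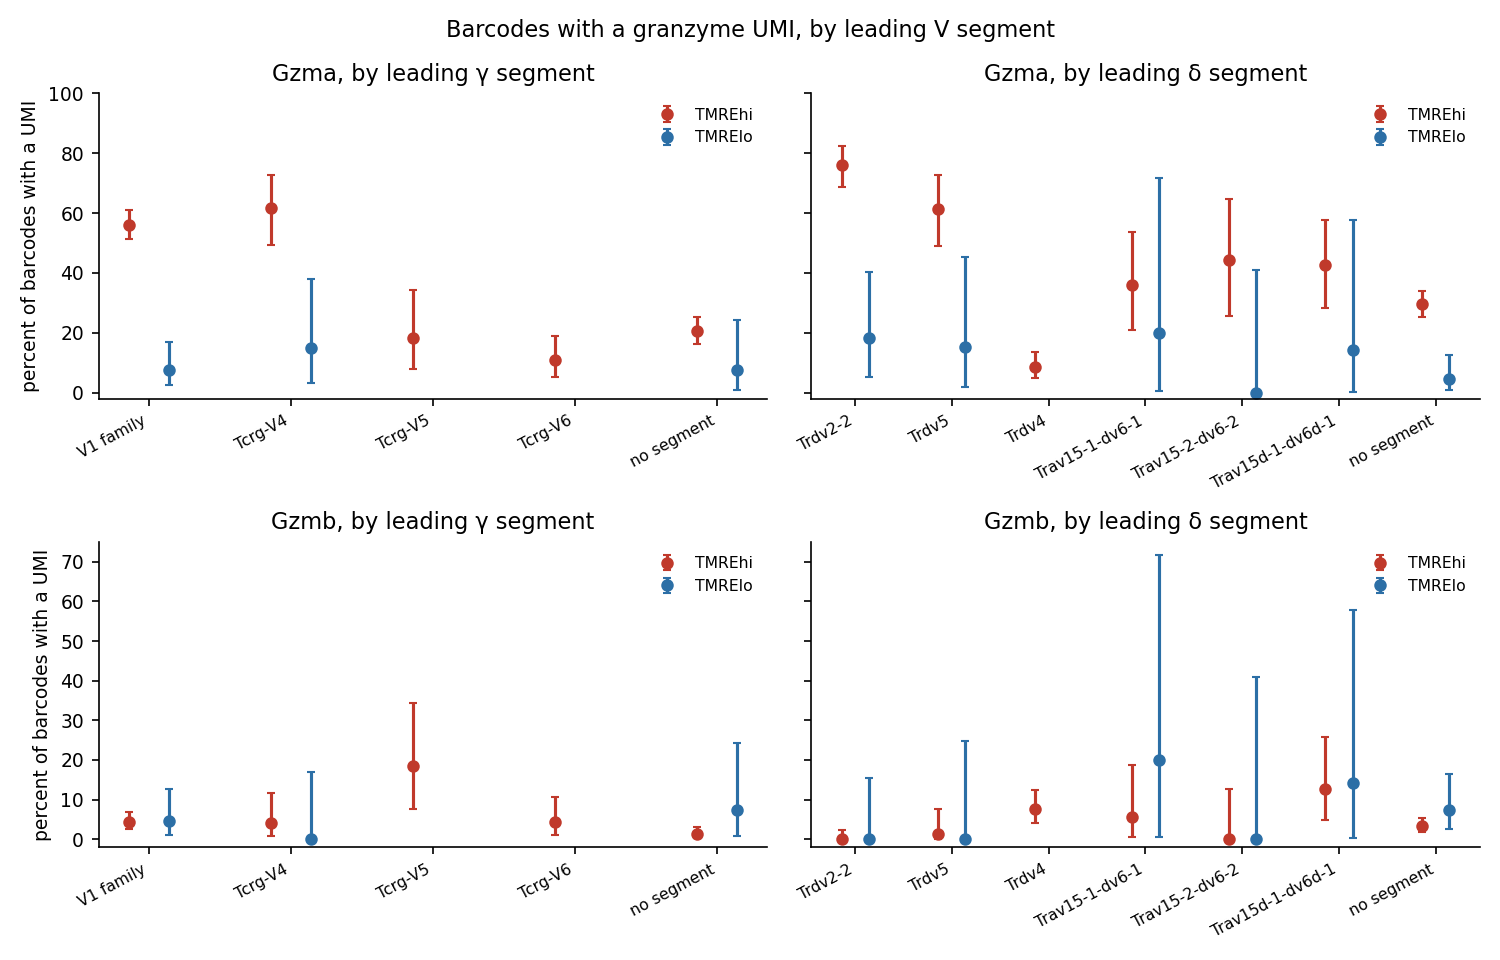
Percent of barcodes with a Gzma UMI (upper row) or a Gzmb UMI (lower row) by most abundant γ segment (left) and δ segment (right), with exact 95% binomial intervals, TMREhi left of TMRElo, for segments with at least 5 barcodes in the library. Gzma is highest in Trdv2-2 barcodes of TMREhi (76.1%), where Gzmb is at 0, and Gzmb is highest by γ segment in Tcrg-V5 barcodes of TMREhi (18.4%).

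The barcodes with Gzmb or Gzmc also carried other transcripts than those with Gzma alone. Over the 292 high-ribosomal TMREhi barcodes, the genes whose level was most like that of Gzmb among 7665 were Tyrobp (Pearson r 0.55), Cd244 (0.55), Fcer1g (0.53), Xcl1 (0.52), AW112010 (0.50), Cd7 (0.50), Klra5 (0.50) and Klrd1 (0.49). Tyrobp and Fcer1g encode signalling adaptors, Cd244, Klra5 and Klrd1 receptors of NK cells, and Xcl1 a chemokine of cytotoxic lymphocytes. Gzmb was itself in 16 of these barcodes, under the minimum of 20 set for the other genes. Of its 146 UMIs 44 lay in 1 barcode, so the r values with Gzmb rest on few barcodes. Gzmc, in 13 of these barcodes and also under the minimum, had an r of 0.73 with Gzmb, and Gzma had −0.04. In the low-ribosomal TMREhi barcodes Gzmc had 0.40 and Gzma 0.02. Among the genes most like Gzma of 7664 were Crip1 (0.62), Lgals9 (0.57), Myb (0.55), Tmem121 (0.55), Gfra1 (0.54), Endou (0.54) and Mtf2 (0.52). Myb encodes a transcription factor of immature thymocytes. The points are barcodes of 1 library with unequal depth. In the 733 low-ribosomal barcodes r ranged from 0.18 to 0.35 for these Gzma genes and from 0.30 to 0.42 for the Gzmb genes.

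Levels of these genes in the same high-ribosomal TMREhi barcodes follow from how they were picked and are a description only. Tyrobp stood at 701 CPM in the 13 barcodes with Gzmb or Gzmc but no Gzma, at 2127 CPM in the 7 with both, and at 2.12 CPM in the 147 with Gzma and neither of them. Myb ran the other way, at 17.5 CPM, 17.7 CPM and 215 CPM in these sets. Cd24a, which encodes the surface marker of immaturity used in the sort, was chosen after its values were seen. It had 0 UMIs in all 52 TMREhi and all 10 TMRElo barcodes with Gzmb or Gzmc, against 460 UMIs in 159 of 375 TMREhi and 0 UMIs in 10 TMRElo barcodes with Gzma and neither of them.

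Marker lists of other cell types differed between these sets. All 7 γδ T cell markers were detected in TMREhi barcodes with Gzma and neither Gzmb nor Gzmc (3382 CPM summed) and in those with Gzmb or Gzmc but no Gzma (4442 CPM). The list of NK and innate lymphoid cell markers includes Tyrobp and Fcer1g, picked above as genes most like Gzmb. Its levels in TMREhi therefore follow in part from that pick and are a description only. This list stood at 12.9 CPM in 375 of the first kind, with Ncr1, Klra8, Klre1, Eomes and Klra4 at 0. It stood at 2357 CPM in 40 of the second kind, with a UMI in 33 of them, with Klra8, Eomes and Klra4 at 0. In the 12 TMREhi barcodes with both it stood at 4018 CPM. In the 9 TMRElo barcodes with Gzmb or Gzmc but no Gzma it stood at 2216 CPM, with Ncr1, Klra8, Klre1 and Klra4 at 0 and all 7 γδ markers detected (5899 CPM). The list of αβ lineage thymocyte markers stood at 354 CPM in the 375 TMREhi barcodes with Gzma and neither Gzmb nor Gzmc, with a UMI in 173 of them. It stood at 52.0 CPM in the 40 with Gzmb or Gzmc but no Gzma, with a UMI in 3, and at 0 in the 12 with both. The 598 TMREhi barcodes without Gzma, Gzmb or Gzmc had more of the αβ list than any of these sets. In them it stood at 681 CPM, with a UMI in 246. Their NK and innate lymphoid list stood at 441 CPM, with a UMI in 86. The part of such cells in the granzyme values was not tested.

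Most of the genes that package granzymes did not follow Gzma. Of 14 genes for granule contents and biogenesis 13 could be compared in retained barcodes, of which 1 was at least 2-fold higher and 8 at least 2-fold lower in TMREhi, against 10% and 29.9% of all genes, and the median of their log2 ratios was −1.18, against −0.35 over all 7802 genes. Srgn encodes serglycin, the proteoglycan that holds granzymes in the granule, and stood at 374 CPM in TMREhi and 847 CPM in TMRElo (ratio 0.442, 0.356–0.555), with 29 of its 89 TMRElo UMIs in 1 barcode. In the low-ribosomal class the Srgn ratio was 1.03 (0.712–1.54). Ctsc encodes cathepsin C, which activates granzymes, and stood at 62.6 CPM in TMREhi and 181 CPM in TMRElo (ratio 0.346, 0.216–0.589). Nkg7, a granule membrane protein, stood at 208 CPM in TMREhi and 933 CPM in TMRElo (ratio 0.223, 0.180–0.279), and Ctsw, cathepsin W, at 129 CPM in TMREhi and 514 CPM in TMRElo (ratio 0.251, 0.188–0.341). Lamp1, a lysosome membrane protein, stood at 92.9 CPM in TMREhi and 76.1 CPM in TMRElo (ratio 1.22, 0.611–2.86). Rab27a had 112 UMIs in TMREhi and 2 in TMRElo (ratio 2.03, 0.548–16.9). Unc13d, the gene counted as at least 2-fold higher, had 66 UMIs in TMREhi and 1 in TMRElo (ratio 2.39, 0.414–95.7). The intervals of Lamp1, Rab27a and Unc13d spanned equality. In the low-ribosomal class 12 could be compared, with 0 higher and 3 lower, against 15.8% and 13.4% of all genes, and a median of −0.08 against −0.06.

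Of 13 regulators of cytotoxic genes 9 could be compared in retained barcodes, with 0 higher and 7 lower and a median log2 ratio of −1.24, against 10%, 29.9% and −0.35 for all genes. In the low-ribosomal class 8 could be compared, with 0 higher and 3 lower and a median of −0.67, against 15.8%, 13.4% and −0.06. Runx3, a RUNX factor of cytotoxic T cells, stood at 126 CPM in TMREhi and 381 CPM in TMRElo (ratio 0.331, 0.238–0.471), and at 296 CPM and 948 CPM in the low-ribosomal class (ratio 0.312, 0.255–0.384). Il2rb encodes a subunit of the interleukin-2 receptor and had 53.3 CPM in TMREhi and 314 CPM in TMRElo, with 11 of the 33 TMRElo UMIs in 1 barcode. Eomes, a T-box factor named here after its values were seen, had 4 UMIs in TMREhi and 9 in TMRElo, with 7 of the 9 in 1 barcode. The 7 other granzyme genes looked for (Gzmd, Gzme, Gzmf, Gzmg, Gzmn, Gzmk and Gzmm) had 0 UMIs in retained barcodes of both libraries.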

How the data were processed

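The authors deposited 1 matrix of raw UMI counts per library, made with Cell Ranger 3.0.2 per the file headers (Cell Ranger 3.0 and genome build mm10 per the submitters' processing notes). For annotation and cell calling, settings were not given in the sources. Members and gene lists were chosen with earlier results of these data known.

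UMIs were summed over barcodes and scaled by library total to CPM. Ratios are TMREhi over TMRElo, with exact conditional binomial intervals, and shares have exact Clopper-Pearson intervals, at 95%. With 1 library per fraction no test was made. Named genes were the members, list genes with at least 20 UMIs in retained barcodes, and the 8 genes most correlated with Gzma or Gzmb on a log scale (1 plus UMIs per 10000), among those in at least 20 barcodes and leaving out receptor genes and unnamed gene models. One gene like Gzma is not reported here. The leading segment is that with most UMIs, ties apart. Depth was equalised by a single random draw of 1000 UMIs per barcode, or of 2000 where stated. Intervals of thinned shares do not cover variation between draws. Scrublet called 5 TMREhi and 9 TMRElo doublets, which were kept. The ratio interval was tested on simulated counts drawn independently for each gene. Those counts have no concentration in single barcodes, so the test does not cover it. Software was scanpy 1.11.5, scipy 1.17.1, pandas 2.3.3, matplotlib 3.10.9 and numpy 2.4.6 under Python 3.11.15.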

Additional observations from a re-analysis of the deposited data

How the results depend on the processing

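Equal weight per barcode gave a Gzma ratio of 10.5. The Gzmb ratio was 0.139 over all deposited barcodes, 0.262 with at least 1000 genes and at most 5% mitochondrial UMIs, 0.955 in the low-ribosomal class, 0.210 in retained barcodes with a γ V UMI, 0.0582 with equal weight per barcode and 0.155 without the top barcodes. It was above 1, at 1.53 (0.618–4.88), in low-ribosomal barcodes with a γ V UMI, a setting added after the data were seen. That interval spanned equality, so a reversal is not shown. For Gzmc the ratio was 0.109 over all barcodes, 0.0496 with the stricter filter and 0.0328 in the high-ribosomal class. It was 0.566 in the low-ribosomal class and 0.576 there with a γ V UMI. Retained barcodes with a γ V UMI gave 0.0181, equal weight per barcode 0.0253, and retained barcodes without the top ones 0.0302. Without thinning, the Prf1 share was 1.58 percentage points higher in TMREhi, against 0 thinned. Genes at least 2-fold higher numbered 782 of 7802 (10.0%), or 222 of 3081 (7.21%) with a minimum of 50 CPM and 3341 of 13336 (25.1%) with none. Lower genes numbered 2330 of 7802 (29.9%), or 702 of 3081 (22.8%) at 50 CPM. The cause of these changes was not tested. Scaling by the median ratio raised all log2 ratios by 0.06. Without the barcode richest in the gene in each library, chosen after the data were seen, the V1 family ratio was 1.04 for Gzmb, where it had been 0.402, and 0.0853 for Gzmc, where it had been 0.109. No Prf1 ratio could be computed, since TMRElo had 0 retained UMIs. No paired analysis was possible because each fraction had 1 library. The 34 retained TMRElo barcodes limit every TMRElo value, as 3 UMIs there equal 28.5 CPM.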

Other observations

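Cpa3, a carboxypeptidase gene, was the 1 gene of the mast cell and basophil list with UMIs in TMREhi barcodes that held Gzma and neither Gzmb nor Gzmc. It had 514 UMIs in 122 of 375 such barcodes (213 CPM), 1 UMI in 40 barcodes with Gzmb or Gzmc but no Gzma, and 58 UMIs in 23 of 598 barcodes with none of the 3 genes. In TMRElo it had 1 UMI in 10 barcodes with Gzma alone. Mcpt8, Fcer1a and Ms4a2, the other genes of that list, were at 0 in each of these sets. These sets were looked at after the values had been seen.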
